A study of Saccharomyces cerevisiae with 6 samples.

Results

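The 5′ segment of the 18S coding region is the stretch of the 35S gene in which the first 900 of the 1800 nucleotides of 18S rRNA are transcribed. Its members were chosen by coordinate alone, as positions 701 to 1600 of the deposited table, 900 of 6858 positions. On chromosome XII they span 465970 to 466869 of assembly R64, read from the minus strand, inside the 18S rRNA gene *RDN18-2*. An identical second copy in *RDN18-1* lies from 456833 to 457732, and the authors added the counts of both copies. The base column of the table differed from the RefSeq genome at 0 positions.

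A WT and an *spt4△* strain of *Saccharomyces cerevisiae* were compared by Native Elongating Transcript Sequencing (NET-seq), with 3 libraries each, from cells grown at 30 °C to an OD600 of 0.3. Both strains carried an HA and histidine tag on Rpa135, the second largest subunit of Pol I, through which the polymerase was captured, and both had the alleles *can1-100*, *ade2-1*, *trp1-1*, *ura3-1* and *his3-11,15* and a *leu2* allele. In WT the tag was marked with *TRP1mx6*, and the chromosomal gene of the largest Pol I subunit was deleted (*rpa190Δ::HIS3Mx6*) and supplied from the plasmid pRS315-*RPA190*. In *spt4△* the tag was marked with *URA3mx6*, *SPT4* was replaced by *HIS3*, and no such plasmid is listed. A difference between the strains therefore cannot be told apart from these other differences in genotype. The table holds only the 35S gene, so the loss of *SPT4* RNA could not be checked in it.

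Pol I makes a single long precursor, in which the 18S sequence follows the 5′ external spacer (ETS1) and is later cut out to become the RNA of the small ribosomal subunit. The 5′ segment of 18S holds the whole 5′ domain of that RNA, which folds and binds ribosomal proteins and assembly factors while the polymerase is still transcribing. Spt4 forms a complex with Spt5 that binds elongating polymerases, and Spt5 has relatives in all domains of life. In NET-seq, each read marks the last nucleotide that a captured polymerase added, so a position with many reads is one where polymerases were found often. Such peaks are read as slow or paused positions.

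Occupancy is given in rpm, the reads at a position per 1000000 reads of the library on the gene. The WT libraries held 914317 to 1648715 reads in the 5′ segment of 18S, and the *spt4△* libraries held 53107 to 79665. The median position of this stretch held 732 to 1310.5 reads in WT and 45 to 67 in *spt4△*. Counting error at such a position was 2.76% to 3.70% in WT and 12.2% to 14.9% in *spt4△*. The least that the depth can show was set at 3 reads, or 0.299 to 0.541 rpm for a WT library and 6.22 to 9.76 rpm for one of *spt4△*. Counting error is the only error in these bounds. The highest count at any of the 900 positions was 13402 reads, below the 65536 possible molecular identifiers of 8 bases. Across the 900 positions, Spearman's rho was 0.982 to 0.984 between WT libraries, 0.931 to 0.952 between *spt4△* libraries and 0.790 to 0.836 for the 9 pairs that join both strains, given as a description because positions of one gene are not independent.

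The RNA around positions with large changes or high occupancy is shown first, because the results below turn on these places. Each line holds 30 bases on each side of the last added nucleotide, which is in capitals, read 5′ to 3′ from the base column. Among called positions whose libraries did not overlap and whose mean occupancy was at or above the median of the stretch, the first 5 are the largest rises in *spt4△* and the next 5 the largest falls, and the last 4 are among the highest positions of a strain.
Position 788 (chrXII:466752-466812): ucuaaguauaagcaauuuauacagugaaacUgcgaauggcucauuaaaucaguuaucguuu
Position 902 (chrXII:466638-466698): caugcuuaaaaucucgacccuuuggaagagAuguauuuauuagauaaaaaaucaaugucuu
Position 977 (chrXII:466563-466623): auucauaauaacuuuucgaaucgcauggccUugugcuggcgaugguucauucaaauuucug
Position 1392 (chrXII:466148-466208): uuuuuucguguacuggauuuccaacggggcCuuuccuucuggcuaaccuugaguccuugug
Position 1478 (chrXII:466062-466122): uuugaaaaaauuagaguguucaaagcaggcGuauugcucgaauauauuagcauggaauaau
Position 988 (chrXII:466552-466612): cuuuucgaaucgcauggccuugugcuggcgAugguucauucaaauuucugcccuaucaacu
Position 1063 (chrXII:466477-466537): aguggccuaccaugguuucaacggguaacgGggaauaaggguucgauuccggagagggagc
Position 1238 (chrXII:466302-466362): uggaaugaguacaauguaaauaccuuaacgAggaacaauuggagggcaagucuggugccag
Position 1374 (chrXII:466166-466226): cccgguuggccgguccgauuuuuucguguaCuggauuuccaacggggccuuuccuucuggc
Position 1456 (chrXII:466084-466144): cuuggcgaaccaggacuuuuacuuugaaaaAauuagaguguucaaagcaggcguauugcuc
Position 845 (chrXII:466695-466755): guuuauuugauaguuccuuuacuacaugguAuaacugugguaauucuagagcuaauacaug
Position 1031 (chrXII:466509-466569): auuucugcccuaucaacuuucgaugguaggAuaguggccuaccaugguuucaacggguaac
Position 1172 (chrXII:466368-466428): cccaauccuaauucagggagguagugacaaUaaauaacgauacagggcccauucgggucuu
Position 1321 (chrXII:466219-466279): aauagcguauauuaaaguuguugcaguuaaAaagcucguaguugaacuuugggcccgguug

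Pol I occupancy in the 5′ segment of 18S was spread unevenly over its positions. The position at the 90th percentile held 9.02, 8.88 and 7.99 times the rpm of the position at the 10th in WT, and 7.79, 7.30 and 7.45 times in *spt4△*. The exact permutation p, two-sided here and throughout, was 0.1, and 3 libraries against 3 cannot give a smaller one. The median position held 131 to 133 rpm in the WT libraries and 139 to 146 rpm in the *spt4△* libraries, without overlap (exact permutation p = 0.1). So the typical position was slightly more occupied in *spt4△*, by 0.12 on the log2 scale. That is close to the gene, where scaling to the median position moves log2 changes by −0.13. The range between high and low positions was narrower. In the 3′ segment of 18S that ratio of percentiles also fell, from 8.73 ± 0.707 (SD, n = 3) to 7.43 ± 0.276. In ETS1 it rose, from 24.1 ± 2.47 to 41.1 ± 6.76. The tallest positions of the 5′ segment of 18S show its narrower range from the other side. The 10% of positions with the most reads in a library held 33.3%, 32.4% and 31.6% of the reads of the stretch in WT and 28.6%, 28.5% and 28.6% in *spt4△*, a difference of −3.91 points without overlap (exact permutation p = 0.1).

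**Figure D1:**
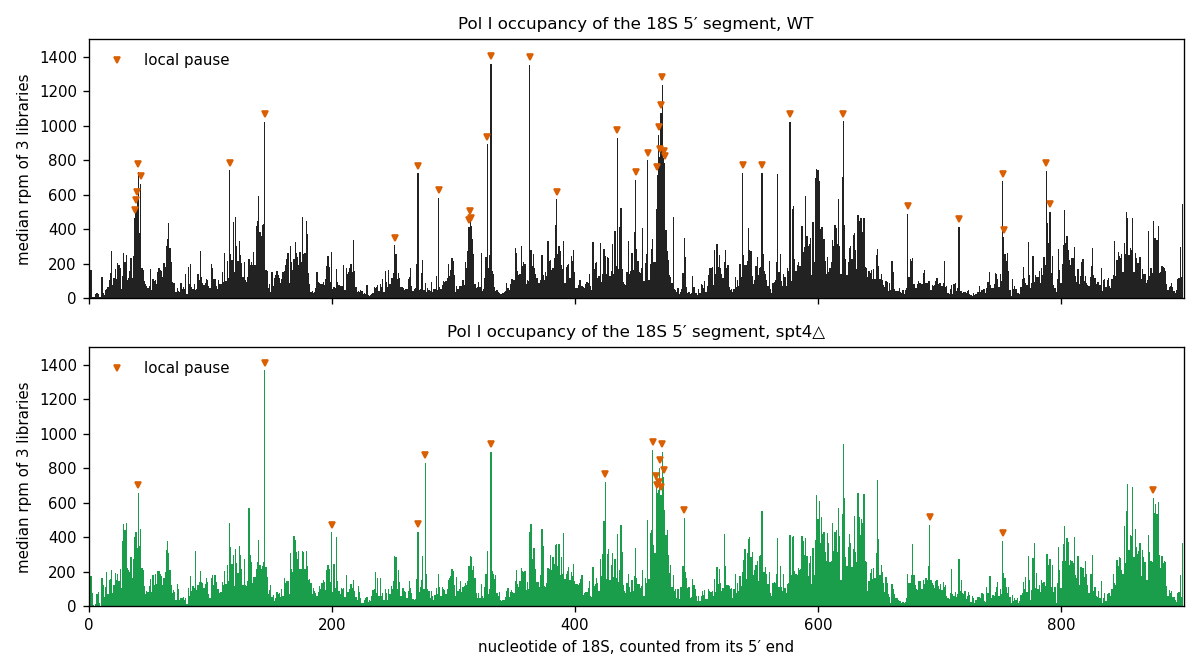
Median occupancy of 3 libraries in rpm at each of the 900 nucleotides of the 18S 5′ segment, with WT above and spt4△ below, and triangles over local pauses (at least 4 times the median of the surrounding positions). WT has 37 such pauses and spt4△ has 19, and the tallest bar is at nucleotide 331 in WT and at nucleotide 145 in spt4△.

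Of the whole gene's occupancy, the 5′ segment of 18S took up 16.4%, 16.5% and 16.3% in WT replicates 1 to 3, and 16.5%, 17.3% and 17.3% in those of *spt4△*. The *spt4△* libraries were all higher, but replicate 1 (16.52%) lay just above the highest WT library (16.49%). The log2 ratio was 0.053, a 1.04-fold difference (exact permutation p = 0.1). A single position of 25S, position 6399, took 3.38% to 4.31% of all *spt4△* occupancy and 0.479% to 0.665% in WT. With it left out of the total, the share was 16.5% ± 0.119 (SD, n = 3) in WT and 17.7% ± 0.380 in *spt4△*.

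The 3′ segment of 18S gained more. The ratio of summed occupancy in the 5′ segment to that in the 3′ segment (positions 1601 to 2500) was 1.29, 1.22 and 1.24 in WT and 1.11, 1.16 and 1.17 in *spt4△*, a log2 difference of −0.13 (exact permutation p = 0.1), and the strains did not overlap. The 3′ segment rose from 13.1% ± 0.383 (SD, n = 3) to 14.9% ± 0.0645 of the gene's occupancy. This ratio does not depend on the library total.

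At its 5′ boundary the stretch meets ETS1, where occupancy was much lower. The median over the last 50 positions of ETS1 was 4.69, 3.79 and 5.28 rpm in WT and 9.33, 6.84 and 6.51 rpm in *spt4△*. Over the first 50 positions of 18S it was 117, 119 and 109 rpm in WT and 153, 154 and 159 rpm in *spt4△*. In *spt4△* replicates 1 to 3, the bound of 3 reads is 6.22, 6.84 and 9.76 rpm. The ETS1 median of replicate 2 thus lay at its bound and that of replicate 3 below it. Medians on both sides of the boundary were higher in *spt4△*, but those of ETS1 rest on very few reads there. The step by medians, which uses these ETS1 values, overlapped between the strains. It was 25.6 ± 5.39 times (SD, n = 3) in WT and 21.1 ± 4.19 times in *spt4△* (exact permutation p = 0.4). With means in place of medians the step was smaller in *spt4△* without overlap, at 2.68 to 2.98 on the log2 scale beside 3.75 to 4.49 in WT (log2 difference −1.36, exact permutation p = 0.1). Position 701, the first nucleotide of 18S, was among the emptiest of the stretch, ranking last of 900 in WT with 3.49, 2.16 and 3.29 rpm. Its *spt4△* values of 24.9, 11.4 and 3.25 rpm rest on 12, 5 and 1 reads and overlap WT (log2 fold change 1.49, standard error 0.59, adjusted p = 0.056 from limma). At the other end, position 1600 held 548, 554 and 480 rpm in WT and 367, 335 and 368 rpm in *spt4△*, lower by limma (log2 fold change −0.56 with a standard error of 0.11, adjusted p = 0.00164).

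Each position was tested with limma after adding a pseudocount of 1 to its rpm and taking log2, and those with a Benjamini-Hochberg adjusted p under 0.05 over the whole gene were called. In the 5′ segment of 18S, 283 of 900 positions (31.4%) were higher in *spt4△* and 176 (19.6%) were lower, where 25.2% and 21% of the 6848 positions tested in the gene were called in these directions. The share of lower positions was thus near that of the gene and the share of higher positions somewhat above it. The 3 libraries of *spt4△* all lay above those of WT at 339 positions (37.7%; 30.7% in the gene) and all below at 217 (24.1%; 25.9% in the gene). Positions called higher had a median log2 fold change of 0.77, those called lower −0.72, and all 900 together 0.13, beside 0.079 over the gene. Without WT replicate 1, 224 positions were higher and 116 lower. The 3′ segment of 18S had 331 higher and 107 lower of 898 tested, and ETS1 255 and 104 of 699.
The balance between both directions depended on the scale. When libraries were instead divided by their median position, which moves every log2 change by −0.13, there were 233 higher and 232 lower positions in the 5′ segment of 18S. When they were divided by their sum over the stretch, 259 were higher and 197 lower. Under either scale the stretch held calls in both directions. The share of the gene called is given here for the main fit only. Counts on these scales, without a library or by another test therefore do not compare the stretch with the gene.

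**Figure D2:**
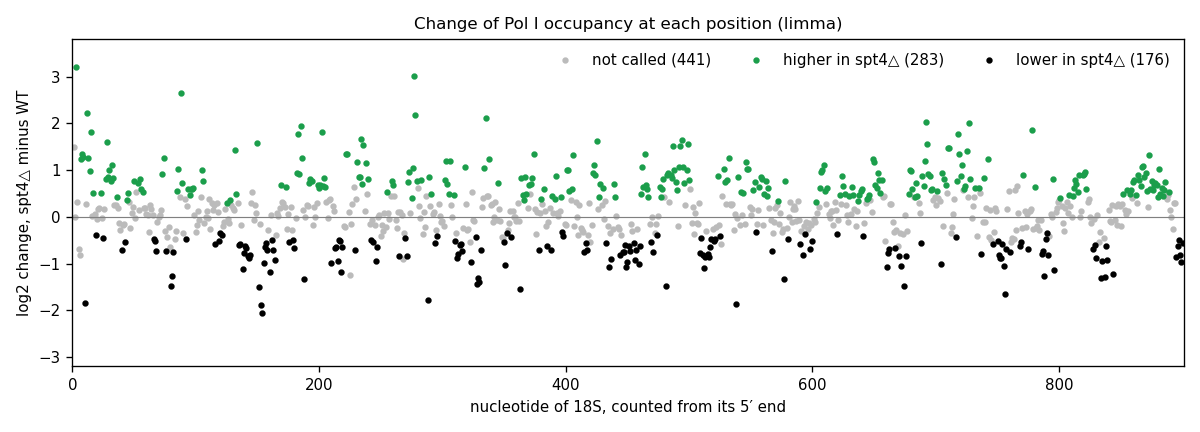
Log2 change of occupancy (spt4△ minus WT, limma, pseudocount 1) at each nucleotide of the 18S 5′ segment. Green points (283) were called higher and black points (176) lower at an adjusted p under 0.05, grey points (441) were not called, and both colours occur along the whole stretch.

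The highest positions of the strains differed in part. In WT, position 1031 (nucleotide 331 of 18S) was highest, with 1240.9, 1356 and 1521 rpm, and it fell to 709, 896 and 934 rpm in *spt4△* (log2 fold change −0.70, standard error 0.15, adjusted p = 0.00278 from limma). Position 1063 (nucleotide 363, a G) came second in WT, with 1289, 1354 and 1393 rpm. It dropped to 429, 540.1 and 413 rpm in *spt4△*, where it ranked 62 of 900 (log2 fold change −1.55, standard error 0.13, adjusted p = 7.61e-06). No library of one strain reached the other at either position.
In *spt4△*, position 845 (nucleotide 145) was highest, with 1112, 1388 and 1367 rpm beside 1078, 1021 and 1018 rpm in WT. The groups did not overlap, but the difference missed the threshold (log2 fold change 0.30, standard error 0.14, adjusted p = 0.0936 from limma). Position 1321 (nucleotide 621) was the second highest in *spt4△*, with 939.6, 1098 and 941 rpm, and overlapped its WT values of 1051, 1017 and 1025 rpm (log2 fold change −0.058, standard error 0.13, adjusted p = 0.727). Positions 845 and 1321 were thus tall in both strains, ranking 7 and 5 of 900 in WT. Positions 1031 and 1063 lost occupancy, but position 1031 still ranked 5 of 900 in *spt4△*.

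A cluster of high positions lay at 1168 to 1174 (nucleotides 468 to 474), in the sequence printed above for position 1172. Position 1172 held 1271, 1107 and 1235 rpm in WT and 896, 882 and 1084 rpm in *spt4△* (log2 fold change −0.34, standard error 0.14, adjusted p = 0.0626 from limma). Its neighbour 1171 fell from 1250.1, 1075 and 1054 rpm to 647, 618 and 752 rpm (log2 fold change −0.74, adjusted p = 8.82e-04). Just upstream, the 7 positions 1161 to 1167 were all called higher, with a mean of 265, 267 and 284 rpm in WT and 462, 480 and 478 rpm in *spt4△*. Within them, position 1164 (nucleotide 464) rose from 341, 346 and 397 rpm to 877, 969 and 905 rpm (log2 fold change 1.34, standard error 0.11, adjusted p = 7.25e-06) and became the third highest position of the stretch. Position 1160, directly before them, was a high position of WT and moved the other way, from 693, 800 and 852 rpm to 456, 577 and 498 rpm (log2 fold change −0.62, adjusted p = 0.00265). Rises and falls thus lay side by side upstream of the cluster.

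The rises and falls named next are the 5 in each direction whose RNA is printed above, ranked under the same limit on mean occupancy. Some positions below that limit changed more, and 2 of them are named here after their values were seen. Position 703 rose from 8.08, 5.23 and 10.1 rpm to 114, 54.7 and 78.1 rpm (log2 fold change 3.22, standard error 0.34, adjusted p = 3.19e-05 from limma). Position 854 fell from 130, 135 and 167 rpm to 16.6, 50.1 and 45.6 rpm (log2 fold change −2.05, standard error 0.34, adjusted p = 6.20e-04). The libraries did not overlap at either position. Within the limit, the largest rise was at position 977 (nucleotide 277, a U). It held 84.3, 91.1 and 98.3 rpm in WT and 577, 841 and 830 rpm in *spt4△* (log2 fold change 3.01, standard error 0.15, adjusted p = 1.86e-07 from limma). It moved from rank 590 to rank 6 of 900. The second largest fall lay 11 positions downstream, at position 988 (nucleotide 288, an A), where occupancy went from 580, 517 and 607 rpm in WT to 118, 198 and 186 rpm in *spt4△* (log2 fold change −1.79, standard error 0.18, adjusted p = 1.87e-05). Here a high position of *spt4△* and a high position of WT stood within one short stretch of RNA.
Position 788 (nucleotide 88, a U) rose from 38.2, 48.2 and 50.6 rpm to 328, 319 and 231 rpm (log2 fold change 2.65, standard error 0.18, adjusted p = 1.85e-06). Position 1392 (nucleotide 692, a C) rose from 103, 99.7 and 110 rpm to 489, 469 and 345 rpm (log2 fold change 2.04, adjusted p = 2.58e-06). Of the 10 bases ending at position 1392, the stretch that pairs with the template in the polymerase, 8 are G or C. At the other rises, 788, 902, 977 and 1478, this count is 4, 4, 7 and 6. At the falls 988, 1063, 1238, 1374 and 1456 it is 7, 7, 4, 4 and 2. Rises of 1.86 and 1.83 on the log2 scale followed at positions 1478 (nucleotide 778, a G, adjusted p = 4.94e-06) and 902 (nucleotide 202, an A, adjusted p = 4.86e-06).
The largest fall within the limit was at position 1238 (nucleotide 538, an A), from 724, 774 and 725 rpm in WT to 178, 198 and 234 rpm in *spt4△* (log2 fold change −1.87, standard error 0.12, adjusted p = 1.52e-06). Position 1456 (nucleotide 756), in a run of A, fell from 276, 247 and 263 rpm to 72.6, 98.0 and 78.1 rpm (log2 fold change −1.66, adjusted p = 7.64e-06). Position 1374 (nucleotide 674, a C) fell from 601, 489 and 445 rpm to 212, 187 and 150 rpm (log2 fold change −1.48, adjusted p = 2.44e-05). Position 1063 completes the 5 falls. Of these 10 positions, the rises end in U, U, C, G and A, and the falls end in A, A, A, G and C.

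**Figure D3:**
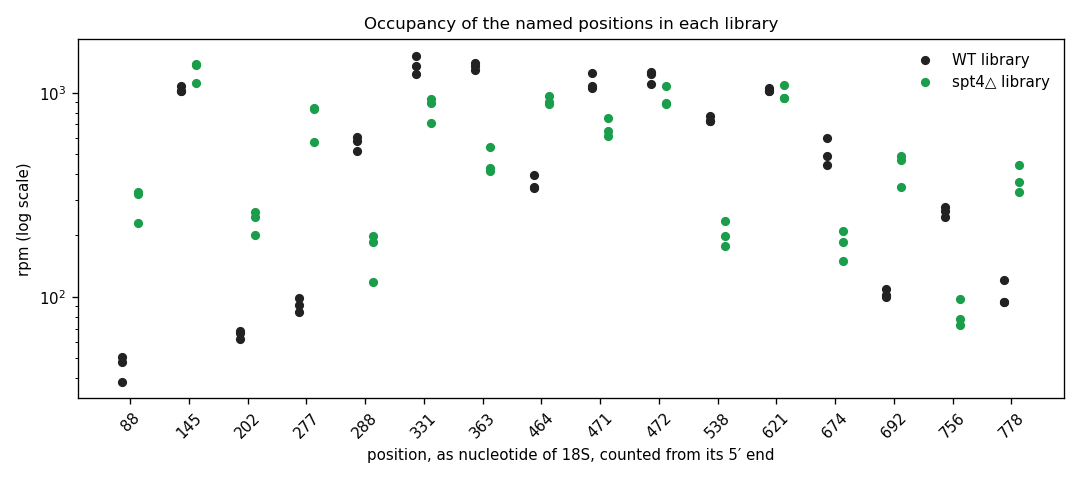
Occupancy in rpm on a log axis in each of the 3 WT and 3 spt4△ libraries at the 16 named positions other than the first and last of the 18S 5′ segment, labelled by nucleotide of 18S. At nucleotide 277 the WT points sit between 84.3 and 98.3 rpm and the spt4△ points between 577 and 841 rpm, and at nucleotide 621 the strains overlap.

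Some changed positions lay side by side. There were 113 uninterrupted runs of positions called higher and 93 of positions called lower, of which 18 and 10 were at least 5 positions long. The longest ran over 14 positions from 1573 to 1586, where the mean per position was 226, 236 and 262 rpm in WT and 403, 370 and 377 rpm in *spt4△*. The next was from 1389 to 1397, with 83.5, 83.3 and 87.2 rpm in WT and 197, 183 and 179 rpm in *spt4△*. Among the lower ones the longest ran over 8 positions from 1450 to 1457, with 308, 267 and 255 rpm in WT and 145, 158 and 147 rpm in *spt4△*. The RNA of the 4 longest runs in each direction is printed with the run in capitals and 15 bases on each side, to show the bases that the changed positions end in.
Higher, 1573 to 1586 (chrXII:465969-466012): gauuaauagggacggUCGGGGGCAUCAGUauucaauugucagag
Higher, 1389 to 1397 (chrXII:466158-466196): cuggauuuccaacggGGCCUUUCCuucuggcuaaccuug
Higher, 1349 to 1356 (chrXII:466199-466236): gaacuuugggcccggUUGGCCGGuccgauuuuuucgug
Higher, 1564 to 1571 (chrXII:465984-466021): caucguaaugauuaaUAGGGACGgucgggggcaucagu
Lower, 1450 to 1457 (chrXII:466098-466135): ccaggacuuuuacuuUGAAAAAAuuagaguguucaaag
Lower, 838 to 844 (chrXII:466711-466747): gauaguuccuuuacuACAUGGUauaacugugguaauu
Lower, 913 to 919 (chrXII:466636-466672): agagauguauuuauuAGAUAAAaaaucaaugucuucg
Lower, 1146 to 1152 (chrXII:466403-466439): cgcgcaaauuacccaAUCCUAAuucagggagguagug
G and C made up more than the 42.2% of the whole stretch in 10 of the 18 higher runs and in 2 of the 10 lower runs, with medians of 46.4% and 33.3%. Since the runs were found from the same values, this is a description of the places and not a test. Runs in the rest of the gene are not given here, so their number is not set against it.

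In bins of 100 positions, the strains did not overlap in 6 of 9 bins, 3 higher and 3 lower in *spt4△*. The bin from 1501 to 1600 rose from 182, 196 and 198 rpm per position in WT to 233, 238 and 243 rpm in *spt4△*, a log2 ratio of 0.31. That from 1301 to 1400 rose from 210, 205 and 212 rpm to 255, 260 and 248 rpm (log2 ratio 0.28), and that from 701 to 800 from 141, 153 and 141 rpm to 159, 165 and 168 rpm (log2 ratio 0.18). The lower bins were 1001 to 1100, 1201 to 1300 and 1401 to 1500, with log2 ratios of −0.13, −0.13 and −0.12. Each of the 6 bins had a exact permutation p of 0.1, or 0.15 adjusted over the 9 bins. The higher bins thus lay at both ends of the stretch and at 1301 to 1400, and the other 3 bins overlapped. In 18 bins of 50 positions, 7 were higher and 3 lower without overlap. In the bins 1001 to 1100 and 1401 to 1500 the mean fell while the median log2 change over positions was 0.076 and 0.080, so that fewer, taller positions carried the fall.

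**Figure D4:**
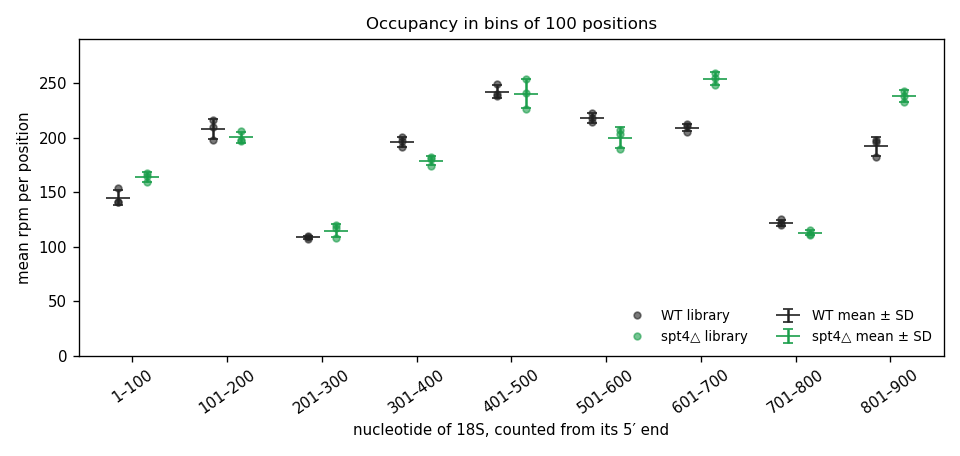
Mean occupancy per position in rpm in 9 bins of 100 nucleotides along the 18S 5′ segment, with points for single libraries and dashes with bars for the mean ± SD of 3 libraries. In the bin of nucleotides 801 to 900 the spt4△ libraries lie at 233 to 243 rpm, above all WT libraries (182 to 198 rpm).

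A local pause was defined as a position whose median over 3 libraries was at least 4 times the median of the positions up to 50 away on each side inside 18S. WT had 37 local pauses in the 5′ segment of 18S and *spt4△* had 19, of which 11 were shared. When pauses were counted in each library by itself, the WT libraries had 40, 36 and 33 and those of *spt4△* had 22, 18 and 17, without overlap (exact permutation p = 0.1). That count was added after the data were seen. The 11 shared pauses were positions 741, 845, 971, 1031, 1168, 1169, 1170, 1171, 1172, 1173 and 1452, so that 6 of them belong to one cluster. The 8 pauses found in *spt4△* alone were positions 900, 977, 1125, 1164, 1167, 1190, 1392 and 1576, all of them called higher. Of the 26 found in WT alone, 22 were called lower, and positions 738, 739, 952 and 1321 were not called. Position 1321, kept in both strains, stood at 4.89 times its surroundings in WT and 3.64 times in *spt4△*. A pause counted in WT alone can thus be a position that only missed the cutoff in *spt4△*. Because pauses were picked from these values, their direction is a description.
Of all pauses of each strain, most ended in A. In WT 23 of 37 and in *spt4△* 12 of 19 had A as the last base, which 27.7% of the 900 positions have. Of the shared pauses, 9 of 11 ended in A. Among those of WT alone 14 of 26 did, but among those of *spt4△* alone only 3 of 8. In the 10 bases that end at the pause, G and C made up 62.5% at the 8 pauses of *spt4△* alone and 48.8% at the 26 of WT alone. Over all 19 pauses of *spt4△* they made up 49.5% and over all 37 of WT 46.2%, beside 42.2% around all 900 positions.

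The last base and the base after it were related to how occupancy changed. The mean occupancy of positions ending in A, relative to the mean of the stretch, was 1.42, 1.41 and 1.40 in WT and 1.18, 1.23 and 1.25 in *spt4△*. For positions ending in U it was 0.806, 0.813 and 0.798 in WT and 0.967, 0.945 and 0.920 in *spt4△*. Positions ending in A were thus the most occupied in both strains, but by less in *spt4△*, and those ending in U gained. Positions ending in G went from 0.783, 0.788 and 0.846 to 0.870, 0.875 and 0.871, without overlap, and for C the strains overlapped, at 0.953 ± 0.0178 (SD, n = 3) and 0.926 ± 0.0288. The exact permutation p was 0.1 for A, G and U and 0.2 for C, or 0.133 and 0.2 adjusted over the 4 bases. Beside the 31.4% of all 900 positions called higher and the 19.6% called lower, 46 of the 249 ending in A were called higher and 83 lower, and 113 of the 271 ending in U were called higher and 32 lower. The 214 ending in G had 75 higher and 34 lower, and the 166 ending in C had 49 and 27.
Among the 16 pairs of last and next base, *spt4△* lay above WT without overlap in 5 and below in 4. For U followed by G the relative occupancy rose from 0.634, 0.637 and 0.628 to 0.914, 0.831 and 0.782, and 32 of its 59 positions were called higher. For A followed by A it fell from 1.57, 1.53 and 1.49 to 1.25, 1.29 and 1.30, with 27 of 81 positions called lower. Of the 43 positions with G followed by C, 15 were called higher, near the 31.4% of all positions, and 0 lower at an adjusted p under 0.05 from limma.
In the rest of the gene without position 6399, positions ending in A fell from 1.25 ± 0.00536 (SD, n = 3) to 1.11 ± 0.0383. The excess of the 5′ segment of 18S over the rest of the gene for A went from 0.158 ± 0.00943 to 0.110 ± 0.000857, without overlap (exact permutation p = 0.1). In the 3′ segment of 18S they fell almost as much as in the 5′ segment, from 1.27 ± 0.00924 to 1.10 ± 0.0337, and the difference between both segments changed by only −0.015 (exact permutation p = 0.1). Positions ending in C rose in the 3′ segment of 18S, from 0.942 ± 0.00711 to 1.01 ± 0.0202, and the excess of the 5′ segment over the 3′ segment for C went from 0.0109 ± 0.0123 to −0.0829 ± 0.0147, again without overlap (exact permutation p = 0.1). These are 3 of 8 such differences computed, none of which overlapped. The gain of positions ending in U was not particular to the 5′ segment. In the 3′ segment they rose from 0.996 ± 0.0203 to 1.10 ± 0.0190 (exact permutation p = 0.1). In the rest of the gene without position 6399 they rose from 0.902 ± 0.0141 to 0.988 ± 0.0224 (exact permutation p = 0.1). For positions ending in G the strains overlapped in both of these regions (exact permutation p = 0.4).

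G and C content around the last nucleotide, which is counted as −1, also went with occupancy. Across the 900 positions, occupancy fell with the number of G and C among the 10 bases still to be transcribed (+1 to +10). Spearman's rho was −0.22, −0.21 and −0.19 in WT and −0.056, −0.080 and −0.080 in *spt4△*, without overlap (exact permutation p = 0.1 for the difference between strains, 0.15 adjusted over 3 windows). For the 10 bases of the RNA-DNA hybrid (−10 to −1), rho was 0.0437, 0.0509 and 0.0636 in WT and 0.146, 0.131 and 0.154 in *spt4△* (exact permutation p = 0.1, adjusted 0.15). These correlations are weak and run across neighbouring positions that share bases. Where 6 to 10 of the downstream bases were G or C, the median position held 112, 116 and 127 rpm in WT and 145, 149 and 146 rpm in *spt4△*, and 102 of 214 positions were called higher and 27 lower, where 31.4% and 19.6% of all positions were called. Where 4 or 5 were, it held 114, 109 and 112 rpm in WT and 124, 134 and 137 rpm in *spt4△*, with 114 of 359 called higher and 65 lower. Where 0 to 3 were G or C, it held 165, 167 and 165 rpm in WT and 153, 162 and 159 rpm in *spt4△*, with 67 of 327 called higher and 84 lower. The median log2 fold change of a position was 0.41, 0.14 and 0.015 in these classes, and thus highest ahead of G and C. Scaling to the median position of the gene moves log2 changes by −0.13. Whether the other classes gained or lost therefore depends on the scale, but the order of the classes does not.
In the rest of the gene without position 6399, rho with downstream G and C was 0.050 ± 0.00872 (SD, n = 3) in WT and 0.0919 ± 0.0053 in *spt4△*. The strains differed there by 0.042 and in the 5′ segment of 18S by 0.14, and the difference between both regions changed by 0.094 without overlap (exact permutation p = 0.1). The 3′ segment of 18S was closer to the 5′ segment, with −0.060 ± 0.0146 in WT and 0.044 ± 0.00976 in *spt4△*, and the difference between both segments changed by 0.032 (exact permutation p = 0.1).
Around the 10% of positions with the most reads in each library, G and C at +1 to +10 made up 36.6% ± 0.570 (SD, n = 3) in WT and 39.0% ± 1.33 in *spt4△*, and at −30 to −11 they made up 43.2% ± 0.841 and 40.3% ± 1.07 (both exact permutation p = 0.1). At −10 to −1 the strains overlapped, at 43.4% to 46.4% and 46.1% to 47.8% (exact permutation p = 0.3). The share of these top positions that ended in A was 53.3% ± 1.92 (SD, n = 3) in WT and 41.1% ± 2.94 in *spt4△*, without overlap (exact permutation p = 0.1).
For the RNA that has left the polymerase, the folding energy of the 40 nucleotides ending 11 before the last one was predicted with RNAfold. Its rho with occupancy was −0.081 ± 0.00385 (SD, n = 3) in WT and −0.073 ± 0.00935 in *spt4△*, which overlapped (exact permutation p = 0.3).

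**Figure D5:**
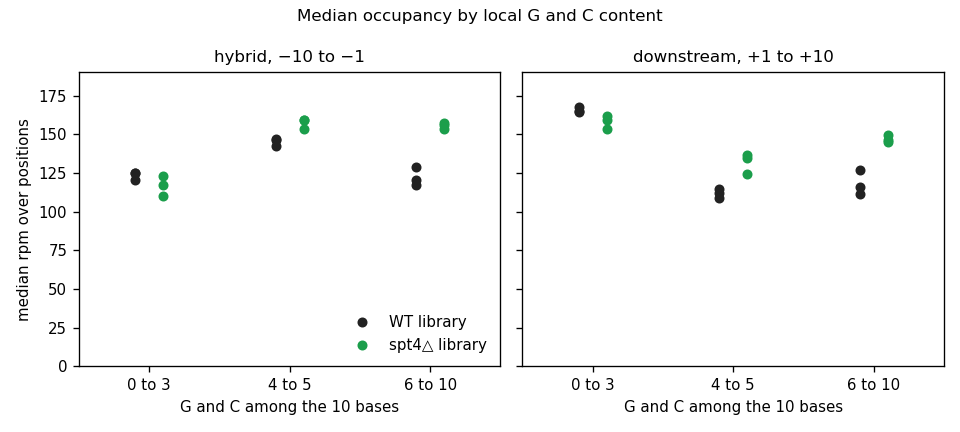
Median occupancy in rpm of the positions of the 18S 5′ segment in 3 classes of G and C content, among the 10 bases ending at the last nucleotide (left) and the 10 bases after it (right), with 1 point per library. With 6 to 10 downstream G and C the spt4△ libraries lie at 145 to 149 rpm and the WT libraries at 112 to 127 rpm, and with 0 to 3 the WT libraries lie at 165 to 167 rpm, above spt4△.

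The linker joined to the RNA begins with CA, 8 variable bases and CT, and the authors kept reads that began with the reverse complement of this. Its resemblance to the gene sequence right after each position was therefore counted. In the 5′ segment of 18S, 1 position is followed by an exact match and 33 by a match with 1 mismatch among the 4 fixed bases. For the 33 the median occupancy went from 111 to 116 rpm, WT before *spt4△*, and for the 866 other positions from 133 to 145 rpm. Of the 33, 12 were called higher and 6 lower, beside 271 and 169 of the 866. The exact match follows position 838, the first of the lower run 838 to 844, which fell from 562, 420 and 369 rpm to 214, 226 and 172 rpm (log2 fold change −1.13, adjusted p = 2.32e-04 from limma). A match with 1 mismatch follows position 703 and the pauses at 1168 and 1190. The part of this resemblance in their values was not tested.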

How the data were processed

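The authors removed duplicate reads with fqtrim and linkers with cutadapt 1.12, aligned to assembly R64-1-1 with STAR 2.7.1a without splicing and counted read ends per position with BEDTools 2.26.0. They deposited, for each library, counts divided by the library total, in rpm (reads per 1000000 reads up to the terminator T1). The authors' own means, ratios and p-values in that table were not used. Of 41148 values, 41137 (99.97%) were within 0.01 of a whole multiple of one step per library, taken as 1 read.

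limma 3.58.1 was fitted in R 4.3.3 to log2(rpm + 1) at the 6848 positions of the gene with a read, with strain as the only term and no filter. Two-sided exact permutation tests over libraries were used for single values. Folding used ViennaRNA 2.7.2, and tables were made with Python 3.11.15. The limma and edgeR 4.0.16 fits were tested on simulated data with few, large changes and the same dispersion in both strains. In these data far more positions were called, so the simulation cannot show how many of those calls are false. On the recovered reads, edgeR's quasi-likelihood test called 306 positions of the stretch higher and 181 lower, and shared 455 calls with limma, and DESeq2 1.42.0 was a further alternative.

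Named positions followed a rule: the 5 highest medians in each strain, the 5 largest rises and 5 largest falls among called positions, if the strains did not overlap and the mean reached the median of the stretch, the first and last position, and the longest runs. The region, the lists and the tests were chosen with earlier results of these data known. Alternatives changed the pseudocount, filter, scaling, test, windows, thresholds and libraries one at a time. The sources used here name no sequencing run, so a run cannot be told apart from the strain. The study describes the libraries of a strain as biological replicates.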

Additional observations from a re-analysis of the deposited data

How the results depend on the processing

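The alternatives were run for 18 single positions, those of the rule for naming. The 14 of them that were called kept their direction and an adjusted p under 0.05 under each alternative fitted. Of all 459 calls in the stretch, 340 were shared without WT replicate 1. Position 701 passed the threshold with edgeR (log2 fold change 2.22, or 2.14 with TMM), DESeq2, the replicate block and without spt4△ replicate 3. Position 1172 passed it under 8 alternatives (adjusted p from 0.00185 with DESeq2), among them those that scale to the median position or to the stretch, and position 845 without spt4△ replicate 1. With 1 library left out, 224 to 297 positions were higher and 116 to 190 lower, the lowest lower count being without WT replicate 1. The replicate numbers showed no pairing of the libraries. Between same-numbered libraries, deviations of log2(rpm + 1) from the mean of the strain correlated by 0.011, 0.021 and −0.053. A replicate block gave 289 higher and 182 lower.

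The log2 ratio of the share was 0.11 without the top 0.5% of positions and also without positions followed by linker-like sequence, and 0.10 without the highest position. The median rpm of the stretch, which is not a share, differed by 0.12 on the log2 scale. Scaling to the median position of the gene moves log2 changes by −0.13. The ratio of the 5′ to the 3′ segment of 18S was −0.19 by the median, and the step at the start of 18S was −1.36 by the mean, without overlap. The share of the top 2.5% of positions differed by −2.44 points. By the median over positions, A differed by −0.26 and C reversed to 0.0092. The difference in rho with the hybrid was 0.063 for 5 and 0.040 for 20 bases, and that for downstream bases 0.10 for 20. For folding it was 0.033 for 30 nucleotides and reversed to −0.027 for 60, so no direction holds there. In bins of 50, 7 were higher and 3 lower. With a threshold of 3 times the surroundings there were 64, 44 and 24 local pauses in WT, *spt4△* and both, and with 5 times 19, 7 and 4. With 25 positions on each side, *spt4△* had 12 and both had 6. The causes were not tested. The depth of *spt4△* limits single positions most.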
